A study of Mus musculus with 6 samples.

Results

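The tight junction genes described here are 9 rows of a table of 24454 genes, chosen by name. The 7 membrane genes are Cldn3, Cldn4, Cldn7, Ocln, Marveld2, Marveld3 and F11r. The 2 genes for cytoplasmic scaffolds are Tjp1 and Cgn. Each of the 9 had a row, and each passed the filter of at least 1 CPM (reads of a gene, with each library scaled to one common total) in at least 2 libraries, which kept 11524 genes for testing. RNA was sequenced from Py2T, an epithelial line grown from a mouse mammary gland tumour, in 3 groups of 2 libraries. The RNA was total RNA depleted of ribosomal RNA. The PBS group is the control, labelled as PBS with 0 µM H2O2 and elsewhere in the labels as untreated. The C40 line received 40 µM H2O2 and the I60 line 60 µM, every day for 4 months. A treatment time of 4 months is also given for the PBS group. Each dose is represented by 1 derived line, so a difference that arose in a line without H2O2 cannot be told apart from an effect of H2O2. Each pair of libraries is described by the submitters as biological duplicates, but whether the cells were treated apart is not known here. The p-values therefore reflect variation between 2 libraries, which may be technical.

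Tight junctions seal the space between neighbouring epithelial cells near their apical border. Claudins span the membrane and polymerise into the strands that set which ions and solutes pass, while occludin, tricellulin and MarvelD3 (from Ocln, Marveld2 and Marveld3) form a second family of membrane proteins, named for their MARVEL domain. Junctional adhesion molecule A, from F11r, is an adhesion protein of the immunoglobulin superfamily. On the cytoplasmic side, ZO-1 (from Tjp1) and cingulin (from Cgn) link these membrane proteins to actin and myosin, and ZO-1 also takes part in adherens junctions and in cells that have no tight junctions. In mammary epithelium these junctions close the ducts and alveoli, and loss of claudins and occludin is a known feature of epithelial-mesenchymal transition.

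The libraries held 48113692 to 60260520 reads, so 1 read equals 0.0166 to 0.0208 CPM. The C40 libraries differed more from each other than those of the other groups, with 1022 genes over 2-fold apart against 223 in PBS and 217 in I60. The epithelial keratins Krt8 and Krt18 were at 1059 to 1707 CPM in every library and passed the test in neither treated line, while the other tested epithelial markers, Epcam, Cdh1 and Krt7, fell in both (in I60 256-fold, 811-fold and 839-fold, limma adjusted p = 5.69e-06, 4.5e-06 and 6.38e-07). In bulk RNA, fewer cells that express a gene and less RNA per cell cannot be told apart.

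Most membrane genes were lower in both treated lines, while Tjp1 did not pass the test in any comparison. In C40, 5 of the 7 membrane genes and 1 of the 2 scaffold genes fell. In I60, 6 of the 7 and 1 of the 2 fell. Over the 9 genes, 6 fell in C40, where 9.02% of all genes tested were called lower, and 7 fell in I60, where 13.1% were. Marveld3, among the falls in both lines, passed the filter only with its PBS libraries, so its falls add nothing to these counts. None of the 9 was called higher in either line by limma, edgeR or DESeq2, and 0 were higher at an unadjusted p under 0.05. Among all genes tested 11.2% were called higher in C40 and 13.9% in I60. The median log2 fold change of the 9 was -2.44 in C40 and -4.63 in I60, against -0.02 and -0.002 for all genes tested. Both comparisons use the same PBS libraries. A call here is a Benjamini-Hochberg adjusted p below 0.05 in limma's moderated test on log2(CPM + 0.5), and fold changes are on that scale, which understates the change of low genes.

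**Figure D1:**
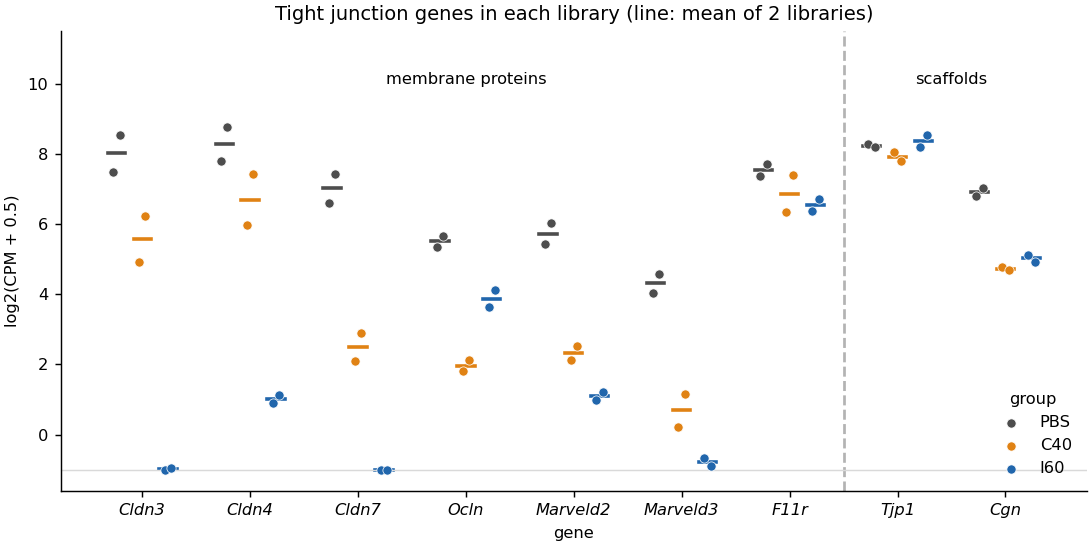
Level of each of the 9 genes in each library, as log2(CPM + 0.5) on the vertical axis, with the genes on the horizontal axis and the 3 groups in colour. Points are single libraries, short lines are the means of 2, and the long grey line marks 0 reads. The claudins step down from PBS to C40 to I60, Ocln is lowest in C40, and the Tjp1 libraries all lie between 221 and 369 CPM.

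The claudins were compared first, since they build the strands. Cldn7, a claudin that also lies along the lateral membrane of many epithelia, stood at 96.9 and 173 CPM in the PBS libraries, at 3.82 and 6.99 in C40 and at 0 in both I60 libraries. Its groups did not overlap, and the I60 libraries held no read of it. Cldn7 was 22.9-fold lower in C40 than in PBS (log2 fold change -4.52 ± 0.38 SE, limma adjusted p = 0.000386). In I60 it was at least 4889-fold lower, taking 3 reads over the group as the limit that a count of 0 allows (limma adjusted p = 1.74e-05). The decline from C40 to I60 was at least 198-fold (limma adjusted p = 0.00177), and such limits cover counting error only.

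Cldn7 lies on chromosome 11 from 69964779 to 69967886 on the forward strand of GRCm38.p6. RefSeq gives it 2 start sites. The 250 bases before the second start, chr11:69965171-69965420 on the forward strand, are shown because they hold 2 copies of the E-box core, the letters CAGGTG or, on the other strand, CACCTG, in capitals. This core is part of the sites known to be bound by the Snail and Zeb repressors, whose own levels are given further on.
Cldn7: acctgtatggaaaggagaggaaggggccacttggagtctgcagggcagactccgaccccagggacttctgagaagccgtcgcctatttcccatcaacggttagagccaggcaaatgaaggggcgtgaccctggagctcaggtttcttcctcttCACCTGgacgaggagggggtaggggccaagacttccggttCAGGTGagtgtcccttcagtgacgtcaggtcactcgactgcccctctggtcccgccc
The copies begin 97 and 57 bases before this second start. Their presence is a match of letters and shows no binding. The window of the first start holds no copy.

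Cldn3 and Cldn4 are sealing claudins of glandular epithelia and lie next to each other on chromosome 5, Cldn4 from 134945123 to 134946934 on the reverse strand and Cldn3 from 134986214 to 134987476 on the forward strand. Their spans are 39279 bases apart, with 0 annotated genes between them. Cldn3 was at 180 and 375 CPM in PBS, 30.0 and 75 in C40, and 0 and 0.0184 in I60, where the second value is 1 read. PBS was highest in both libraries, C40 lay between, and I60 was at the detection limit. The fall in C40 was 5.43-fold (log2 fold change -2.44 ± 0.49 SE, limma adjusted p = 0.0145). This call was lost without PBS replicate 2 (limma adjusted p = 0.0901), and the log2 fold change ran from -3.10 without C40 replicate 2 to -1.79 without C40 replicate 1. In I60 the fitted log2 fold change was -9.00 ± 0.49 SE (limma adjusted p = 2.93e-05). With 1 read left, the ratio of pooled CPM, PBS over I60, was 30197, with an exact 95% interval from 5419 to 1192750 that covers counting error only. Cldn3 shares 40 exon bases with the antisense gene Wbscr25, and no source used here says whether reads were counted by strand.

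Cldn4 was measured at 221 and 439 CPM in PBS, 62.6 and 171 in C40, and 1.37 and 1.69 in I60. The groups did not overlap, but the C40 libraries lay 2.71-fold apart. Its difference in C40, 3.0-fold lower (log2 fold change -1.59 ± 0.50 SE, 95% interval -2.78 to -0.40), missed the threshold at a limma adjusted p of 0.0667. It passed by DESeq2 (adjusted p = 0.0121) and with the replicate number as a block in the model (limma adjusted p = 0.00962). Without C40 replicate 2 the log2 fold change was -2.31. In I60 Cldn4 fell 154-fold (log2 fold change -7.27 ± 0.50 SE, limma adjusted p = 8.34e-05). Of the 3 claudins it alone kept reads well above 1 in both I60 libraries, 73 and 92.

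Both neighbours hold the E-box core near their start. The Cldn4 stretch is chr5:134946935-134947184 on the reverse strand, with a copy that begins 14 bases before the start. A second copy of Cldn4 begins at base 12 after the start, in chr5:134946909-134946932 on the reverse strand, and that of Cldn3 at base 32, in chr5:134986236-134986259 on the forward strand.
Cldn4, before the start: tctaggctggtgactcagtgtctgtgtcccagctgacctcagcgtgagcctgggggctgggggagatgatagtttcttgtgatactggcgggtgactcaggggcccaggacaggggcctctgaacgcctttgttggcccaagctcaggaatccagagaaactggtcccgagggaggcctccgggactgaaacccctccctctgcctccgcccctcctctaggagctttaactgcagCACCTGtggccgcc
Cldn4, after the start: ttcttgttgCAGGTGcaggcagga
Cldn3, after the start: agccacaggCAGGTGcaggggcag

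I60 was also compared directly with C40, which tests whether the difference from PBS differs between the lines. Each of the 3 claudins was lower in I60 than in C40, and with Marveld2 they were the 4 of the 9 genes called lower there. That count was 6 without C40 replicate 1 and 3 without any other single library, and 5.73% of all genes tested were called lower. Cldn4 was 51.3-fold lower (log2 fold change -5.68, limma adjusted p = 0.000807) and Cldn3 had a log2 fold change of -6.56 (limma adjusted p = 0.000421). The pooled read ratio of Cldn3, C40 over I60, was 5802, with an exact 95% interval from 1041 to 229191. These sizes depend on which C40 library is used, with Cldn3 between -7.21 and -5.90 and Cldn4 between -6.40 and -4.96 on the log2 scale when 1 of them is left out.

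The MARVEL genes all fell in both lines, but between the lines Ocln differed in the opposite direction from Marveld2 and Marveld3. Ocln encodes occludin, the first integral membrane protein found in tight junction strands. Ocln was at 40.0 and 50.5 CPM in PBS, at 2.99 and 3.86 in C40 and at 11.9 and 16.8 in I60. C40 was the lowest group and I60 lay between C40 and PBS, with no overlap. Ocln fell 11.6-fold in C40 (log2 fold change -3.54 ± 0.27 SE, limma adjusted p = 0.000303) and 3.11-fold in I60 (-1.64 ± 0.27 SE, limma adjusted p = 0.00491). Between the lines it was 3.74-fold higher in I60 than in C40 (log2 fold change 1.90, 95% interval 1.26 to 2.55, limma adjusted p = 0.00612). It was the only 1 of the 9 genes called higher in that comparison, where 3.51% of all genes tested were called higher. The call was lost without I60 replicate 2 (log2 fold change 1.66, limma adjusted p = 0.0759).

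Marveld2 encodes tricellulin, the protein of junctions where 3 cells meet. Its levels were 42.8 and 64.4 CPM in PBS, 3.85 and 5.22 in C40, and 1.5 and 1.81 in I60. It fell 10.6-fold in C40 (log2 fold change -3.41 ± 0.29 SE, limma adjusted p = 0.00042) and 24.7-fold in I60 (-4.63 ± 0.29 SE, limma adjusted p = 5.67e-05). I60 was 2.32-fold below C40 (log2 fold change -1.22, limma adjusted p = 0.0479), close to the threshold. This call was lost in 10 of 17 alternatives, with log2 fold changes there of -1.32 to -1.02. It was lost with a pseudocount of 1 (limma adjusted p = 0.0646), without the filter (0.114), with a filter of 5 CPM (0.0511), with quantile scaling (0.0794), with I60 and C40 alone (0.0685) and when any library but C40 replicate 1 was left out (limma adjusted p = 0.0699 without PBS replicate 1, 0.0716 without PBS replicate 2, 0.108 without C40 replicate 2, 0.28 without I60 replicate 1 and 0.186 without I60 replicate 2). Marveld3, on chromosome 8 from 109947909 to 109962205 on the reverse strand, encodes a further member of the family. It was at 15.9 and 23.6 CPM in PBS, 0.665 and 1.73 in C40, and 0.131 and 0.0368 in I60, which is 7 and 2 reads. Its groups did not overlap. Marveld3 fell 12.3-fold in C40 (limma adjusted p = 0.000876) and 34.2-fold in I60 (limma adjusted p = 0.000108). Only with its PBS libraries did it pass the filter. Its difference between I60 and C40, 2.77-fold lower, missed the threshold (log2 fold change -1.47, 95% interval -2.35 to -0.59, limma adjusted p = 0.0571), passed by edgeR (adjusted p = 0.0149) and DESeq2 (adjusted p = 2.6e-06), and passed without C40 replicate 1 (limma adjusted p = 0.00831).

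Ocln and Marveld2 are neighbours on chromosome 13, both on the reverse strand, Ocln from 100496504 to 100552718 and Marveld2 from 100595957 to 100616971. A gap of 43238 bases separates them, holding 1 annotated gene, Gm8847, which was not among the genes tested. Per kilobase, the log2 level of Ocln minus that of Marveld2 was -0.42 and -0.67 in PBS and -0.63 and -0.71 in C40, and 2.31 and 2.58 in I60. Ocln was thus the lower of the neighbours in PBS and C40 and the higher in I60. Each gene holds the E-box core near a start. For Ocln 1 copy lies in chr13:100552697-100552720 and another in chr13:100552552-100552575, and for Marveld2 a copy lies in chr13:100616914-100616937, all read on the reverse strand.
Ocln, site 1: tcggagtttCAGGTGaatgggtca
Ocln, site 2: ggggctcggCAGGTGggtcccagc
Marveld2: gcggccgcgCAGGTGagtggggcc
From the first annotated start of each gene, site 1 of Ocln begins at base 8 and the Marveld2 site at base 44. Site 2 of Ocln begins 68 bases before its second annotated start.

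F11r, the adhesion molecule, changed least among the membrane genes. It lies on chromosome 1 from 171437561 to 171464593 on the forward strand. Its levels were 167 and 209 CPM in PBS, 81.3 and 168 in C40, and 81.8 and 105 in I60. C40 replicate 2 reached the lower PBS library, so those groups overlapped, while both I60 libraries lay below both of PBS. The C40 difference was 1.60-fold lower (log2 fold change -0.67, 95% interval -1.48 to 0.13, limma adjusted p = 0.204). It passed without C40 replicate 2 (log2 fold change -1.19, limma adjusted p = 0.009). The I60 difference was 2.01-fold lower (log2 fold change -1.01, 95% interval -1.81 to -0.20) and missed the threshold at a limma adjusted p of 0.0692. It passed by DESeq2 (adjusted p = 0.0226), with PBS and I60 alone in the model (limma adjusted p = 0.00551), and without either C40 library (limma adjusted p = 0.00439 and 0.00428). Between I60 and C40 the log2 fold change was -0.33 (95% interval -1.14 to 0.47, limma adjusted p = 0.642), and its sign rested on C40 replicate 2. Without that library it was 0.19 (limma adjusted p = 0.685), and without C40 replicate 1 the difference passed (limma adjusted p = 0.0444). The F11r window holds 1 E-box core, which begins 122 bases before the start, in chr1:171437430-171437453 on the forward strand.
F11r: tcggggttgCACCTGcgtacggtg

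The scaffolds were then set against these genes. Tjp1 encodes ZO-1 and lies on chromosome 7 from 65296165 to 65527850 on the reverse strand. It was at 309 and 293 CPM in PBS, 265 and 221 in C40, and 293 and 369 in I60. The C40 libraries were lowest and the I60 libraries overlapped those of PBS. Its log2 fold change was -0.32 in C40 (95% interval -0.75 to 0.11, limma adjusted p = 0.258) and 0.13 in I60 (95% interval -0.30 to 0.56, limma adjusted p = 0.64). The sign in I60 turned without I60 replicate 2 (log2 fold change -0.038). Between I60 and C40 it was 0.44 (95% interval 0.01 to 0.88, limma adjusted p = 0.213). These intervals, which rest on variation between libraries, reach a fall of 0.75 in C40 and 0.30 in I60 on the log2 scale. The fitted falls of the claudins and MARVEL genes were larger. The interval of Cldn4 in C40 (-2.78 to -0.40) nonetheless overlapped that of Tjp1.

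Cgn encodes cingulin, which binds ZO-1 and myosin, and lies on chromosome 3 from 94760069 to 94787725 on the reverse strand. It was at 111 and 131 CPM in PBS, 27.0 and 25.3 in C40, and 34.6 and 29.7 in I60. Both treated lines lay well below PBS without overlap. Cgn fell 4.53-fold in C40 (log2 fold change -2.18 ± 0.19 SE, limma adjusted p = 0.000427) and 3.71-fold in I60 (-1.89 ± 0.19 SE, limma adjusted p = 0.000454). The lines did not differ beyond the threshold (log2 fold change 0.29, 95% interval -0.16 to 0.73, limma adjusted p = 0.444). So the scaffolds did not move as 1 group. Cgn had called falls in both lines, as had Cldn3, Cldn7, Ocln, Marveld2 and Marveld3.

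The Tjp1 window is shown as an example that holds no E-box core. It is chr7:65371245-65371494 on the reverse strand, before a RefSeq start that lies inside the annotated span of the gene.
Tjp1: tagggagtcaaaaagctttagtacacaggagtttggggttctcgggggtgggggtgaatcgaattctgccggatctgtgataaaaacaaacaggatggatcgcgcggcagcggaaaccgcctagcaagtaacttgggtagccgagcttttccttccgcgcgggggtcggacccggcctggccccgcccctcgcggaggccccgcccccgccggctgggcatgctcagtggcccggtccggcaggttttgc
The Cgn window, also at a start inside its gene, holds none either. Cgn fell in both lines, while F11r, whose window holds a core, passed in neither line. Whether the core bears on the levels was not tested. RefSeq promoter windows, from 250 bases before to 50 bases after a start, were present for 8 of the 9 genes (11 windows) but not for Marveld3. The E-box core was in at least 1 window of 6 of these 8, and 22.6% of the 27025 genes with a window hold it (20.2% of 32851 windows). The letters AACCGGTT, a site of the Grainyhead factors that reads the same on both strands, were in 0 of the 8 and in 0.174% of all genes with a window. A missing match says only that the letters are not in this window.

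**Figure D2:**
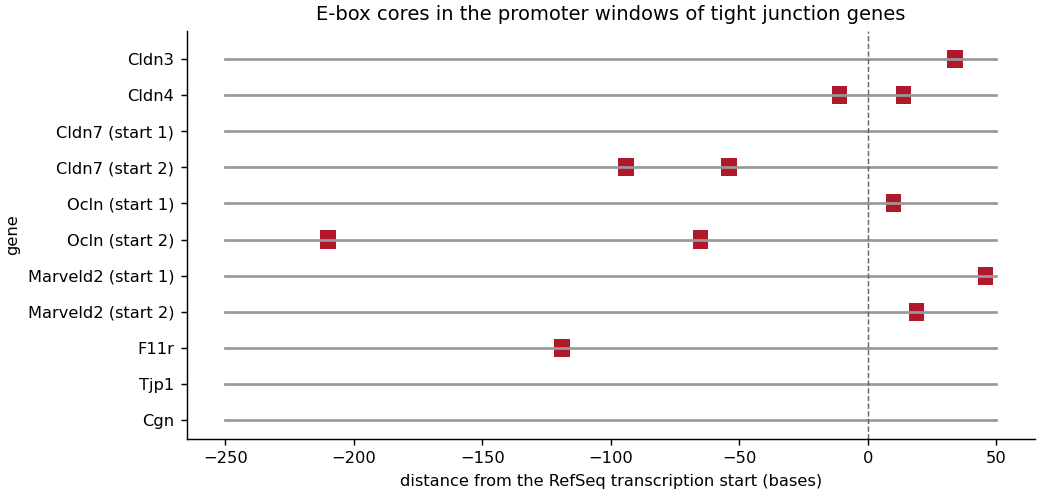
Position of the E-box core in the RefSeq promoter windows of 8 genes, with the distance from the annotated start in bases on the horizontal axis (250 before to 50 after) and 1 line per window. Marks are copies of the core, and the lines of Tjp1, Cgn and the first Cldn7 start carry none.

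**Figure D3:**
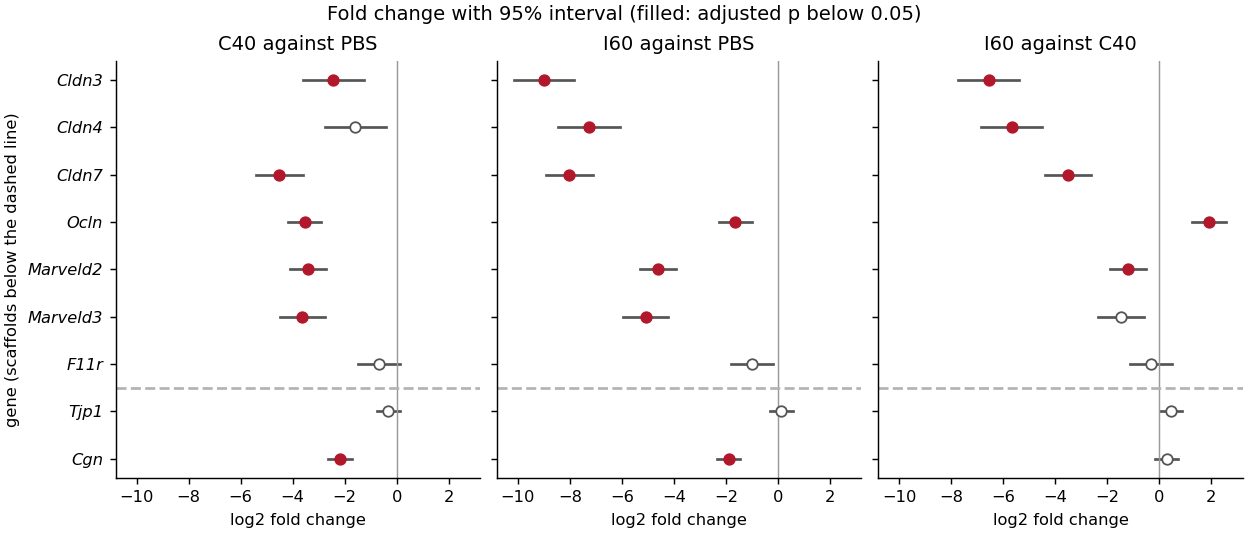
Log2 fold change of the 9 genes in the 3 comparisons, with 95% intervals from limma. Filled points have an adjusted p below 0.05, and the scaffolds are below the dashed line. In the panels against PBS the points of Cldn3, Cldn4 and Cldn7 move further left in I60 while that of Ocln moves right.

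Groups that do not overlap were counted for all 9 genes. In C40, both libraries lay below both of PBS for 8 of the 9 genes, F11r being the exception, where 31.8% of all genes tested did so. In I60 the count was also 8 of 9, with Tjp1 the exception, where 35.2% of all genes tested did so. Marveld3, in both counts, passed the filter only with its PBS libraries, so it adds nothing to either. Between the lines, Ocln, Tjp1 and Cgn were higher in both I60 libraries, F11r overlapped, and the other 5 were lower, where 24.4% of all genes tested were higher and 24.4% lower. With 2 libraries against 2, an exact two-sided permutation test of a single value cannot go below p = 0.333.

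Levels of different genes were compared per kilobase of merged exons. In PBS the order was Cldn3 (221 ± 110 CPM per kb, SD, n = 2), Cldn4 (182 ± 85.1), Cldn7 (91.5 ± 36.7), F11r (74.6 ± 12.0), Tjp1 (42.4 ± 1.56), Cgn (20.0 ± 2.35), Marveld2 (15.8 ± 4.51), Ocln (10.7 ± 1.76) and Marveld3 (6.18 ± 1.69). Cldn3 and Cldn4 overlapped between libraries, as did Cldn7 and F11r, and Cgn and Marveld2. Within each PBS library, however, Cldn3 was above Cldn4 and Cgn above Marveld2, and only Cldn7 and F11r changed places. In C40, Cldn4 (64.2 ± 42.0 CPM per kb), F11r (49.4 ± 24.2), Cldn3 (41.7 ± 25.3) and Tjp1 (34.1 ± 4.41) overlapped between libraries. Within each C40 library the order was Cldn4, F11r, Cldn3 (34.5, 32.3 and 23.8 CPM per kb in library 1, 94.0, 66.5 and 59.6 in library 2), while Tjp1 was above them in library 1 and below them in library 2. Cgn (4.34 ± 0.198) and Cldn7 (3.66 ± 1.52) also overlapped, above Marveld2, Ocln and Marveld3 at 0.375 to 1.34. In I60, Tjp1 (46.6 ± 7.59 CPM per kb) and F11r (37.1 ± 6.53) overlapped between libraries at the top, with Tjp1 above F11r within each library (41.2 against 32.5 and 52.0 against 41.7). Cgn (5.34 ± 0.575) and Ocln (3.39 ± 0.819) followed, and each of the other 5 genes had a mean below 1 CPM per kb. The scaffold Tjp1, below the 3 claudins and F11r in PBS, thus had the highest level of the 9 in both I60 libraries.

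The membrane genes were also summed within each library per kilobase. The sum of the 7 was 424 and 779 CPM per kb in PBS, 95.2 and 228 in C40, and 36.5 and 47.2 in I60. The 3 claudins made up 78.0% and 84.4% of it in PBS, 63.9% and 69.5% in C40, but only 2.06% and 2.01% in I60. F11r made up 15.6% and 10.7% in PBS, 33.9% and 29.2% in C40, and 88.9% and 88.4% in I60. Ocln was 2.24% and 1.54% of the sum in PBS, 0.744% and 0.402% in C40, and 7.70% and 8.42% in I60. What remained of these transcripts in I60 was therefore mostly F11r, with claudins a small share in both libraries.

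**Figure D4:**
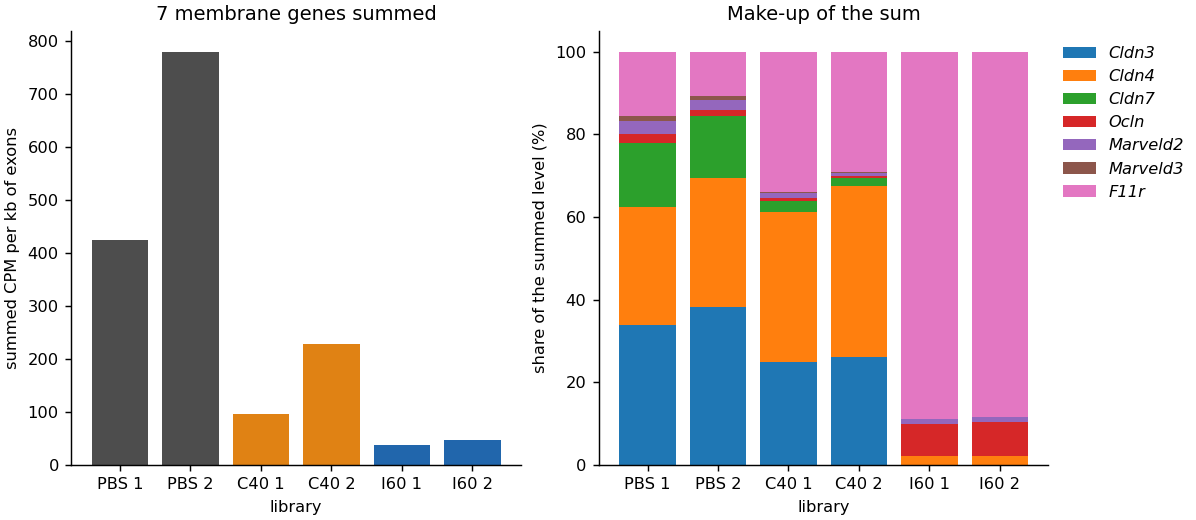
Left, summed level of the 7 membrane genes in each library in CPM per kb of merged exons. Right, the make-up of that sum in percent. Claudins hold most of the bar in the PBS and C40 libraries, and F11r holds 88.9% and 88.4% in the I60 libraries.

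Within each library, the membrane genes were set against Tjp1. The mean over the 7 genes of their log2 ratio to Tjp1, per kilobase, was -0.37 and 0.37 in PBS, -3.09 and -1.94 in C40, and -5.28 and -5.46 in I60. The 3 groups did not overlap. The I60 mean of -5.37 depends on the pseudocount, at -6.35 with 0.1 and -4.86 with 1, because several genes were near 0 reads there. The ratio of F11r alone was 0.61 and 1.01 in PBS, -0.20 and 1.10 in C40, and -0.34 and -0.31 in I60, with C40 spanning PBS. The ratio of Cgn to Tjp1 was -1.24 and -0.92 in PBS, -3.03 and -2.86 in C40, and -2.83 and -3.38 in I60. Here both treated lines lay below PBS and overlapped each other.

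In PBS and C40, the library with the number 2 held more of the membrane transcripts than that with the number 1. In PBS and in C40, 7 of 7 membrane genes were higher in library 2, with a median log2 difference of 0.58 and 0.94. Of all genes tested, 46.5% and 46.2% were higher there, with medians of -0.02 and -0.04. In I60, 5 of 7 were higher and Cldn7 was equal at 0, with a membrane median of 0.21. There 57.7% of all genes tested were higher in library 2, with a median of 0.06, so the I60 count is near that of all genes. Cldn3 differed 2.08-fold between the PBS libraries and 2.48-fold between those of C40, and Cldn4 1.99-fold and 2.71-fold. Tjp1 differed 1.05-fold and 1.20-fold. Cldn3 and Cldn4 also had the largest standard errors of the 9 genes, 0.49 and 0.50 on the log2 scale.

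The rest of the tight junction was read from lists of other genes. Of 22 other claudins with a row, 10 had no read in any library and 3 were tested, of which 2 fell in each line. Of all genes tested, 9.02% were called lower in C40 and 13.1% in I60. Cldn9 was at 68.7 and 118 CPM in PBS, 13.7 and 11.3 in C40, and 1.46 and 1.51 in I60. It fell 7.03-fold (limma adjusted p = 0.00107) and 45.7-fold (limma adjusted p = 2.99e-05). Cldn1, a barrier claudin of skin and many other epithelia, was at 28.7 and 17.5 CPM in PBS, 2.87 and 3.2 in C40, and 0.768 and 0.663 in I60, falls of 6.49-fold and 18.9-fold (limma adjusted p = 0.00113 and 8.69e-05). Cldn12 was the exception, at 117 and 141 CPM in PBS, 73.7 and 118 in C40, and 67.6 and 80.2 in I60. It missed the threshold in both lines (limma adjusted p = 0.238 and 0.0563), though in I60 it passed by DESeq2 (adjusted p = 0.0241) and without either C40 library (limma adjusted p = 0.00851 and 0.00842), and in C40 without C40 replicate 2 (limma adjusted p = 0.0338).

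Of 10 other membrane proteins, 3 had no read in any library and 4 were tested. In C40, 2 fell and 1 rose, and in I60, 2 fell (4 without either C40 library) and none was called higher by limma, edgeR or DESeq2, with 0 higher at an unadjusted p under 0.05. The shares over all genes tested were 9.02% lower and 11.2% higher in C40, and 13.1% and 13.9% in I60. Lsr encodes angulin-1, which brings tricellulin to the corners between 3 cells. It was at 151 and 196 CPM in PBS, 25.9 and 32.7 in C40, and 0.0562 and 0.0553 in I60, which is 3 reads in each I60 library. It fell 5.82-fold in C40 (limma adjusted p = 0.000707) and 310-fold in I60 on the fitted scale (limma adjusted p = 5.64e-06). Crb3 encodes an apical polarity protein. It was at 22.7 and 38.4 CPM in PBS, 3.57 and 10.4 in C40, and 0.112 and 0.0184 in I60. Its fall in C40 (4.50-fold, limma adjusted p = 0.022) was lost without any 1 library of PBS or I60 (limma adjusted p = 0.055 to 0.127), and its log2 fold change there ran from -2.88 to -1.46 without 1 C40 library. Its fall in I60 had a limma adjusted p of 0.000217. The gene that rose was Jam2, an adhesion molecule related to F11r and known from endothelium. Its levels were 1.58 and 0.398 CPM in PBS, 9.04 and 6.35 in C40, and 0.0936 and 0.0184 in I60. C40 was highest and I60 lowest without overlap. Jam2 passed the filter only with its C40 libraries, so its call in C40 adds nothing to the count. Jam2 was 5.92-fold higher in C40 (log2 fold change 2.57, limma adjusted p = 0.00586, and 3.17 and 1.96 without PBS replicate 1 or 2). Its difference in I60 missed the threshold (log2 fold change -1.30, limma adjusted p = 0.0577). That difference passed in 10 of 17 alternatives, edgeR (adjusted p = 0.0127) and DESeq2 (adjusted p = 4.51e-05) among them, and missed in 7. The log2 fold change there ran from -4.12 to -0.70, since the I60 libraries held 5 reads and 1 read. Cxadr, the fourth, was at 108 and 118 CPM in PBS, 26.9 and 89.0 in C40, and 27.7 and 48.6 in I60, and passed in neither line (limma adjusted p = 0.157 and 0.0642). It passed in C40 without C40 replicate 2 (log2 fold change -2.05, limma adjusted p = 0.00326), and in I60 by DESeq2 (adjusted p = 0.00817) and without either C40 library (limma adjusted p = 0.00197 for each).

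Other cytoplasmic proteins of the junction numbered 21, of which 20 were tested. In C40, 6 fell, 1 rose and 13 did not pass, and in I60, 8 fell, 1 rose and 11 did not pass. Of all genes tested, 9.02% were called lower and 11.2% higher in C40, and 13.1% and 13.9% in I60. A count of 1 rise per line is too small to be read against these shares. Prkcz, counted among the falls, passed the filter through PBS alone. The median log2 fold changes of the list were -0.35 and -0.50. The count of falls was 1 in C40 and 3 in I60 without either PBS library, and 4 in I60 without either I60 library. Cgnl1 encodes paracingulin, the relative of cingulin. It was at 787 and 925 CPM in PBS, 301 and 425 in C40, and 142 and 213 in I60, and fell 2.39-fold and 4.90-fold (limma adjusted p = 0.0154 and 0.000799). The C40 call was lost without either PBS library (limma adjusted p = 0.0752 and 0.0992).

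Some polarity genes were among those that fell in the cytoplasmic list. Others, Pard3 (limma adjusted p = 0.428 in C40 and 0.876 in I60) and Mpp5 (0.252 and 0.407), did not pass in either line. Prkci fell 1.67-fold and 1.71-fold (limma adjusted p = 0.0187 and 0.012). Prkcz, an atypical protein kinase C, was at 11 and 12.6 CPM in PBS, 0.790 and 0.865 in C40, and 0.0375 and 0.0184 in I60. It fell 9.25-fold in C40 (limma adjusted p = 0.000215), and it was not tested without either PBS library, since it passed the filter through PBS alone. Its 3 pooled reads in I60 give a PBS over I60 ratio of 424 with an exact 95% interval from 145 to 2060. Patj, a scaffold of the Crumbs complex, fell 4.34-fold and 5.82-fold (limma adjusted p = 0.000636 and 0.000157). Pard6b fell 2.83-fold and 7.81-fold (limma adjusted p = 0.0178 and 0.000663), the first lost without either PBS library (limma adjusted p = 0.0771 and 0.109). Tjap1 was the gene that rose, 1.88-fold and 1.61-fold (limma adjusted p = 0.00773 and 0.0175). Without either PBS library no gene of this list was called higher in either line, nor in I60 without either I60 library, and 4 were in C40 without C40 replicate 1.

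**Figure D5:**
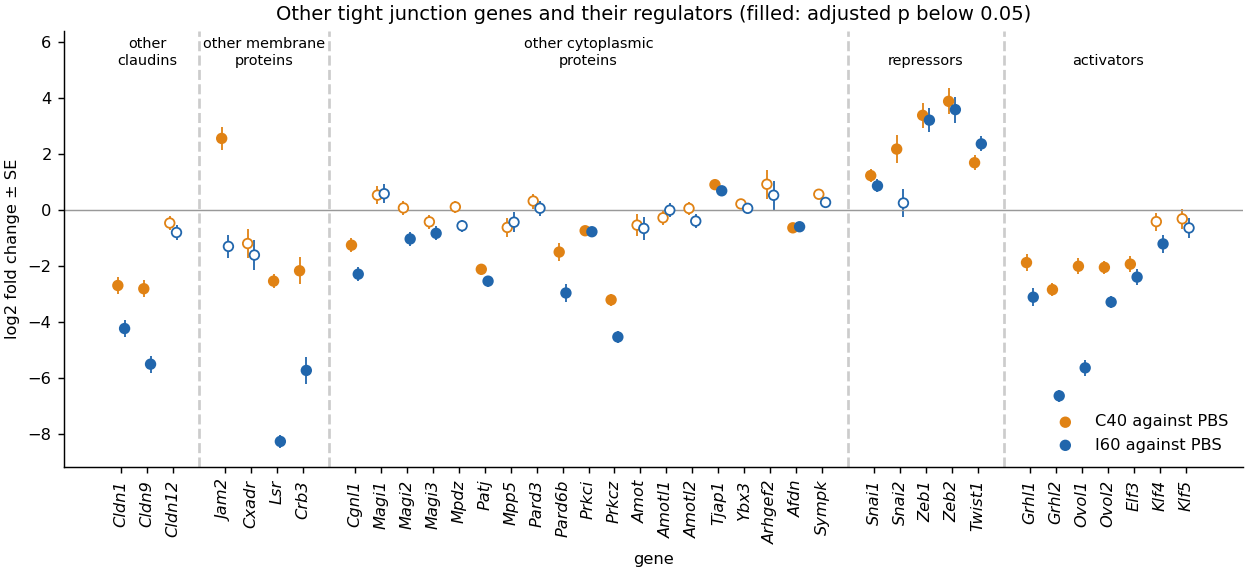
Log2 fold change ± SE of the tested genes of the other lists (1 not shown), against PBS, for C40 and I60. Cldn1, Cldn9, Lsr and Grhl2 are lower in I60 than in C40, while Zeb1 and Zeb2 are above 3 in both lines.

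Transcription factors known to act on junction genes were listed as repressors and activators. Here activators means factors listed as favouring junction genes, even where, as for Ovol1 and Ovol2, the factor is itself a repressor. Of the 5 repressors, Snai1, Zeb1, Zeb2 and Twist1 rose in both lines, where 11.2% of all genes tested were called higher in C40 and 13.9% in I60. Snai2 passed the filter through its C40 libraries alone (1.21 and 4.65 CPM, against 0.210 and 0.0996 in PBS and 0.169 and 0.405 in I60), so its call in C40 (limma adjusted p = 0.0228) adds nothing to that count. In I60 Snai2 did not pass (limma adjusted p = 0.741). Without either PBS library, 3 of the 5 rose in each line. Zeb1, a zinc finger repressor of epithelial genes, was at 6.04 and 1.99 CPM in PBS, 39.8 and 44.0 in C40, and 31.8 and 43.2 in I60. It was 10.5-fold higher in C40 (limma adjusted p = 0.00226) and 9.31-fold higher in I60 (limma adjusted p = 0.00203). The log2 fold change of Zeb1 was 4.09 or 2.70 in C40 and 3.91 or 2.52 in I60 without PBS replicate 1 or 2. Zeb2 was 14.9-fold and 12.1-fold higher (limma adjusted p = 0.00162 and 0.00153). None of the 5 passed between I60 and C40 by limma, where 2, Snai2 and Twist1, had an unadjusted p under 0.05. By edgeR and DESeq2, Snai2 passed as lower in I60 (adjusted p = 0.0347 and 0.00182).

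Of 8 activators 7 were tested, and 5 fell in C40 and 6 in I60, Ovol2 among them in both, which passed the filter through PBS alone. Of all genes tested, 9.02% were called lower and 11.2% higher in C40, and 13.1% and 13.9% in I60. None of the activators was called higher in either line by limma, edgeR or DESeq2, with 0 higher at an unadjusted p under 0.05. Without PBS replicate 1, 3 fell in C40 and 4 in I60, and without PBS replicate 2, 4 fell in each. Grhl2, a Grainyhead factor known to drive Cldn4 in epithelia, was at 101 and 120 CPM in PBS, 14.2 and 15.5 in C40, and 0.562 and 0.645 in I60. The groups were far apart, with falls of 7.19-fold (limma adjusted p = 0.00031) and 100.2-fold (limma adjusted p = 6.21e-06). Ovol1, a repressor of Zeb genes in epithelia, was at 27.0 and 22.3 CPM in PBS, 4.57 and 7.12 in C40, and 0 in both I60 libraries. It fell 4.02-fold in C40 (limma adjusted p = 0.0032) and was at least 881-fold lower in I60. No test tied these factors to the junction genes.

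Markers of other cell types were summed in each library. Fibroblast markers, 8 genes, totalled 6.22 to 7.16 CPM in PBS, 161 to 628 in C40 and 382 to 433 in I60. Of 4 tested, 4 were called higher in C40 (Dcn passed the filter through C40 alone) and 3 in I60. Among all genes tested, 11.2% and 13.9% were called higher in these lines. Lum, Fap and Thy1 were at 0 reads in every library. Most of the sum was Col3a1 in the treated lines and Pdgfra in PBS. The 6 endothelial markers totalled 0.199 to 1.01 CPM over all libraries, none was tested, and Cldn5 was at 0. The 6 immune markers totalled 4.71 to 5.14 CPM in PBS, 4.36 to 4.49 in C40 and 16.6 to 28.2 in I60, nearly all of it Cd68, with Cd3e at 0. Of 5 tested epithelial markers, Epcam, Cdh1 and Krt7 fell in both lines and Krt8 and Krt18 passed in neither. The part of any of these in the junction results was not tested.

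Genes with the profile most like each of the 9 were sought among 10151 tested genes. Likeness was the root mean square distance over the 6 libraries between log2 profiles set to the PBS mean, and it is a description. For Cldn3 the nearest was Esrp1, an epithelial splicing regulator, at 0.302. Mapk13 was nearest to Cldn4 (0.385) and Cpm, which encodes carboxypeptidase M, to Cldn7 (0.596). Ocln had a dip in C40 that was shared by Tlr5 (0.320), Ccdc116 (0.371) and Cdkn2a (0.375). Cdkn2a, the tumour suppressor locus, was at 111 and 165 CPM in PBS, 17.1 and 14.2 in C40, and 44.7 and 39.1 in I60. Marveld2 lay nearest to Tmem125 (0.192), Arhgap40 (0.204) and the polarity kinase Prkcz (0.207). Thsd4 was nearest to Marveld3 (0.269), Zfand2a to F11r (0.164), Rasa3 to Tjp1 (0.0442) and Pacs1 to Cgn (0.175). Cgn was followed by Bst2 (0.210) and by Plekha7 (0.242), itself a gene for a junction protein. Among the 9 themselves, Marveld2 and Marveld3 were closest (0.359) and Cldn3 and Tjp1 farthest (5.44). The closeness of Marveld2 and Marveld3 depends on the pseudocount, since in I60 Marveld3 was at 0.131 and 0.0368 CPM. Under the alternatives the I60 log2 fold change against PBS ran from -5.03 to -4.33 for Marveld2 and from -7.88 to -4.23 for Marveld3. F11r lay 0.791 from Tjp1 and Ocln lay 0.833 from Cgn, both across the divide between membrane and scaffold.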

How the data were processed

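The submitters' processing notes name STAR and mm10. No source used here names the counting program, its annotation or its strand setting. CPM per Entrez gene were deposited by the authors, 24454 rows in 6 libraries, with 0 unmapped columns. Whole reads were recovered from the deposited CPM for 100% of values, within 0.01 of a whole number.

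Symbols and positions came from RefSeq GRCm38.p6, which matched 24374 IDs and left 80. The filter was 1 CPM in 2 libraries or more. Testing used limma 3.58.1 (R 4.3.3, intensity trend) on log2(CPM + 0.5), two-sided, with the 3 groups in 1 model and the PBS libraries shared. Alternatives were edgeR 4.0.16 (quasi-likelihood test) and DESeq2 1.42.0 on the recovered reads, other pseudocounts, filters and scalings, a replicate block, and leaving out single libraries. The tests were tried on simulated data. Protein sequences were not used here.

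The 9 genes and the lists were chosen with earlier results of these data known. Named genes are the 9, the listed genes that passed the filter (largest changes first), the listed factors, and the 3 most alike tested genes with at least 5 CPM in the highest library. Cldn12, Cxadr, Tjap1, Prkci, Pard3 and Mpp5 were added after their values were seen, mostly to show list members that rose or missed the threshold. For 0 reads in a group, folds are lower bounds against 3 reads over the group. The values of 1 list member and 1 most alike gene are not reported here.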

Additional observations from a re-analysis of the deposited data

Results flagged for a closer look

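For 5 of the 9 genes the difference from PBS itself differed between the lines, by the limma test of I60 against C40. The log2 differences, I60 minus C40, were -6.56 for Cldn3, -5.68 for Cldn4, -3.51 for Cldn7 and -1.22 for Marveld2, which were lower in I60, and 1.90 for Ocln, which was higher. Cldn7 had 0 reads in I60, so its fitted value is no bound. Ocln and Marveld2, neighbours on chromosome 13, differed in opposite directions, and the call of Marveld2 was lost without any 1 library but C40 replicate 1, that of Ocln only without I60 replicate 2.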

How the results depend on the processing

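Of 459 log2 fold changes of the 9 genes under the alternatives, 430 kept their direction and their side of the threshold, 15 came to pass it, 12 no longer passed and 2 changed sign. The sign changes were those of Tjp1 in I60 against PBS (-0.038 without I60 replicate 2, 0.29 without I60 replicate 1) and F11r in I60 against C40 (0.19 without C40 replicate 2, -0.85 without C40 replicate 1). Leaving out 1 library gave 5 to 8 of the 9 called lower in C40, 7 to 8 in I60, and in I60 against C40 3 to 6 lower and 0 to 1 higher. Over all genes such fits called 548 to 1685 higher and 281 to 1796 lower in C40, 651 to 2138 and 594 to 2089 in I60, and 85 to 859 and 221 to 912 in I60 against C40. With all libraries these counts were 1293 and 1040, 1607 and 1515, and 404 and 660. edgeR on the recovered reads called 1351 and 1016, 1626 and 1484, and 388 and 696. For I60 against C40, DESeq2 called 1064 lower and the fit of these 2 groups alone 418. The cause was not tested. Where 1 library was left of a group, it was assumed to vary like the other groups. Without the filter on low values, Cldn2 and Cldn20, with at most 15 reads in a library, were also called higher in I60 by limma. TMM and quantile scaling moved the median of all genes to between -0.03 and 0.04 and changed no direction among the 9.

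Libraries with the same replicate number deviated together to differing degrees (r across genes 0.154 for PBS and C40, 0.105 for PBS and I60, 0.438 for C40 and I60). Each group has only 2 numbers, and whether a number marks a shared batch is not known here. A replicate block moved the counts of the 9 genes called lower to 7 in C40, 8 in I60 and 5 in I60 against C40. The genes added were Cldn4, F11r and Marveld3, in that order. The counts over all genes moved to 1552 higher and 1301 lower, 1786 and 1708, and 472 and 781. Depth limits the I60 values of Cldn3, Cldn7 and Marveld3, which rest on 0 to 7 reads per library.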
